A study of Mus musculus with 9 samples.

Results

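Imprinted growth genes are a set of 9 mouse genes, H19, Dlk1, Meg3, Peg3, Mest, Plagl1, Ndn, Grb10 and Gnas. Members were all probe sets whose annotation named one of these genes and no other. This rule gave 31 probe sets for 8 of the 9 genes, out of 36701 probe sets that were not controls. H19 had no such probe set, since its only one was annotated to the microRNA gene Mir675 as well; its values are given apart. The rule itself uses names alone, but the genes were listed with earlier results of these data known.

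The RNA came from C2C12, a clonal line of mouse skeletal myoblasts that stop dividing and fuse into myotubes in medium poor in serum. Before harvest they spent 5 days in DMEM with 2% horse serum at 37 °C, and this was the only condition; no growing myoblasts or other control were among the samples. Total RNA was profiled on 9 Affymetrix arrays, 3 each of the designs U74Av2, U74Bv2 and U74Cv2, which carry different genes and sequences. The labels do not say whether the 3 replicates came from separate cultures, so errors and p-values measure the spread between these arrays, which may be technical.

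Imprinted genes are expressed mainly or only from the copy inherited from one parent, because that copy and the other carry different DNA methylation at a control region. Many act on growth before birth, and several are abundant in embryonic and regenerating muscle and low in the adult. As background, H19 and Meg3 are long non-coding RNAs made from the maternal copy, Dlk1, Peg3, Mest, Plagl1 and Ndn are expressed from the paternal copy, Grb10 mostly from the maternal copy outside the brain, and Gnas yields several transcripts of different parental origin. The arrays sum both parental copies, and in RNA from a whole culture fewer expressing cells and less RNA per cell cannot be told apart.

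The labelled cell type was checked first. All 9 muscle markers (Myog, Acta1, Ckm, Myh3, Des, Chrna1, Mymk, Tnnt3 and Atp2a1) were detected, at between 6.88 and 298 times the background limit. Of 17 measured markers of 6 other cell types, 5 were detected, namely Cd68, Pecam1, Cdh1, Epcam and Eno2, at between 1.39 and 10.2 times the limit. The share over all genes named by 1 symbol was 62.0%. Cdh1 and Epcam are 2 of the 3 epithelial markers, and lay at 6.11 ± 1.31 and 10.2 ± 2.8 times (SD, n = 3). Ptprc, Cd3e, Cdh5, Tek, Krt18, Syp, Snap25, Adipoq, Fabp4, Alb, Afp and Ttr were not detected. The background limit was set array by array, as the 95th percentile over controls whose targets should be missing from the sample, and a probe set counted as detected when each of the 3 arrays that carry it read above its own limit. The limits of replicates 1, 2 and 3 were 206, 280 and 256 signal units on U74Av2, 498, 430 and 963 on U74Bv2, and 1034, 725 and 786 on U74Cv2. Signal also depends on the binding of each probe, so the level of one probe set is not set against that of another, and levels are given against the limit.

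Of the 8 genes measured, 6 were detected by at least 1 probe set: Gnas, Peg3, Mest, Dlk1, Meg3 and Grb10. Ndn and Plagl1 were not. Of all 15964 genes named by 1 symbol, 62.0% were detected, against 75.0% of these 8. A gene counts with any 1 probe set, and these 8 genes had more probe sets per gene than all genes did. The gene shares are therefore not strictly alike. By probe set, 10 of 31 (32.3%) were detected, against 44.7% of all probe sets. On U74Av2 the count was 7 of 17 against 58.2% of all, on U74Bv2 0 of 7 against 43.8%, and on U74Cv2 3 of 7 against 31.6%. A further 4 member probe sets exceeded the limit on 1 or 2 arrays only, and 17 on no array. Probe sets disagreed for 4 genes (Dlk1, Gnas, Grb10 and Meg3), which had detected and undetected ones; by the median over its probe sets Gnas lay at 0.468, Grb10 at 0.553 and Meg3 at 0.664 times the limit. The detection of Gnas, Peg3 and Mest did not depend on which controls set the limit. When no control family was left out, the limit lay between 1300 and 1719 on U74Av2 and between 6072 and 8228 on U74Cv2. The 5 probe sets that remained detected (16.1% of the members, against 13.2% of all) belonged to these 3 genes.

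**Figure D1:**
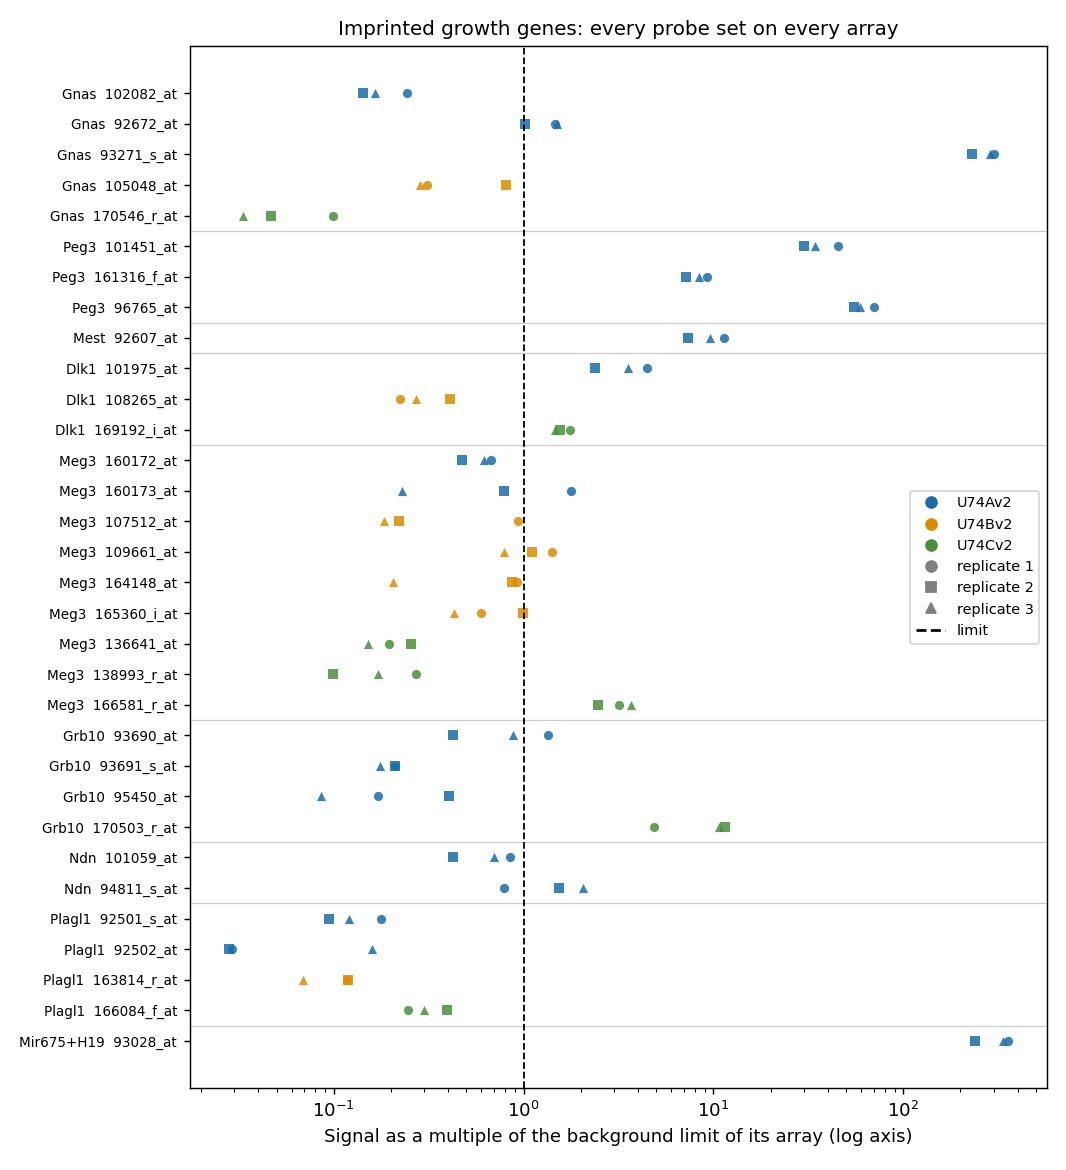
Signal of the 31 member probe sets and of the probe set shared by H19 and Mir675, as a multiple of the background limit of the same array (log axis). Each row holds the 3 replicate arrays (circle, square, triangle) of 1 probe set, coloured by design, and the dashed line marks the limit. The 3 Peg3 rows, 1 Gnas row and the shared row lie far to the right of the line on all 3 arrays, and the 4 Plagl1 rows lie to its left.

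The distance from the limit was also tested, with a limma fit of log2 signal over the limit across all probe sets of a design. By this test 8 of the 31 member probe sets lay above the limit (40.1% of all probe sets did), 14 lay below it (32.9% of all) and 9 passed in neither direction. On U74Av2, 6 members lay above (55.8% of all) and 6 below (28.7%). On U74Bv2, no member lay above (38.0% of all), at an unadjusted p under 0.05 either, and 4 lay below (29.2%). On U74Cv2, 2 lay above (25.7%) and 4 below (41.2%). Of the 10 detected probe sets, 92672_at of Gnas and 169192_i_at of Dlk1 were the ones that did not pass. Because the limit is shared by all probe sets of an array, its own variation enters every value, so the p-values are not independent between probe sets. On U74Bv2 limma pooled the spread over the whole design, and every member had the same SE of 0.48. The SD of log2 signal of these members ran from 0.193 (163814_r_at) to 1.15 (107512_at). Every U74Bv2 p-value given here therefore rests on the pooled spread and not on that of its own probe set.

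**Figure D2:**
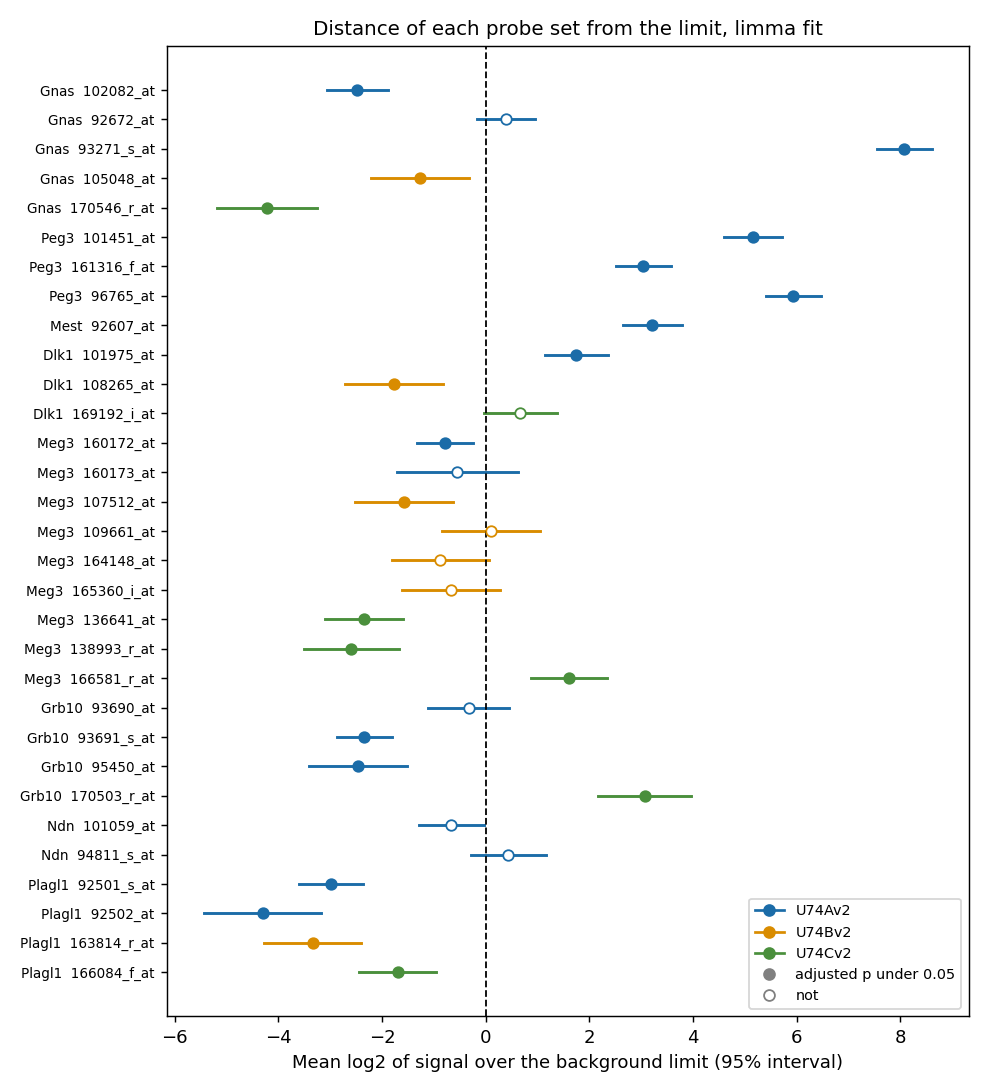
Mean log2 of signal over the background limit for each member probe set, with the 95% interval from the limma fit of its design (n = 3 arrays). Filled points have an adjusted p under 0.05; 8 of them lie to the right of the dashed line at the limit and 14 to its left.

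The first group of members are regulators inside the cell. Gnas encodes the stimulatory G protein alpha subunit, which couples hormone receptors to adenylyl cyclase. Its probe set 93271_s_at read 61543, 64467 and 73621 signal units on the 3 U74Av2 arrays. All 3 values were far above the limits, at 272 ± 37 times (SD, n = 3), and the log2 estimate was 8.08 with an SE of 0.23 (adjusted p = 5.70e-07, limma). The suffix _s_at marks probes that match more than one transcript sequence. Probe set 92672_at of the same gene read 302, 287 and 385, at 1.33 ± 0.27 times the limit (SD, n = 3). It was detected, yet its replicate 2 value stood at only 1.02 times the limit, and the log2 estimate of 0.39 (95% interval -0.17 to 0.95) did not pass (adjusted p = 0.160, limma). The 3 other Gnas probe sets lay below the limit on every array, at 0.184 ± 0.053 (102082_at), 0.468 ± 0.297 (105048_at) and 0.0598 ± 0.0350 times (170546_r_at; SD, n = 3), and each passed the test in that direction. The Gnas locus produces several transcripts from different starts, and the annotation does not say which of them each probe set reads.

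Peg3, a large zinc finger protein that marks several stem and progenitor cells including those of muscle, was the one member with several probe sets that were all detected. Probe set 96765_at read 14471, 15419 and 15200 signal units, at 61.5 ± 7.9 times the limit (SD, n = 3). Probe set 101451_at read 9267, 8390 and 8762, at 36.4 ± 7.8 times (SD, n = 3). Their replicates lay close together, with an SD of log2 signal of 0.048 and 0.072, where the median over all detected probe sets of U74Av2 was 0.154. Probe set 161316_f_at, whose suffix marks probes shared within a gene family, read 1910, 2017 and 2140, at 8.27 ± 1.05 times the limit (SD, n = 3). The log2 estimates of the 3 probe sets were 5.94, 5.16 and 3.04, with SEs of 0.23, 0.24 and 0.23 (adjusted p = 7.40e-07, 1.23e-06 and 8.36e-06, limma). No array was the highest for all 3 probe sets, since replicate 1 led for 101451_at, replicate 2 for 96765_at and replicate 3 for 161316_f_at.

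Mest, a hydrolase fold protein of the endoplasmic reticulum made at high levels in the embryo, had 1 probe set, 92607_at. It read 2345, 2058 and 2471 signal units, at 9.46 ± 2.03 times the limit (SD, n = 3). All 3 arrays lay above the limit and above the array's median signal, and the log2 estimate was 3.22 with an SE of 0.24 (adjusted p = 8.36e-06, limma). Grb10, an adaptor protein that binds and restrains the insulin and IGF1 receptors, had 4 probe sets, of which 1 was detected. That one, 170503_r_at on U74Cv2, read 5012, 8339 and 8378. Replicate 1 was the low array, and it was also washed on another fluidics station and came from another chip lot than replicates 2 and 3; their part in the difference was not tested. The mean was 9.00 ± 3.62 times the limit (SD, n = 3), with a log2 estimate of 3.07 and an SE of 0.37 (adjusted p = 0.00103, limma). The 3 Grb10 probe sets of U74Av2 were not detected. Probe set 93690_at lay above the limit on replicate 1 only, at 1.35, 0.427 and 0.878 times, while 93691_s_at and 95450_at lay below it on every array, at 0.198 ± 0.021 and 0.221 ± 0.165 times (SD, n = 3). The suffix _r_at marks a set for which some of the usual rules for choosing probes had been dropped, so the Grb10 signal rests on a probe set of that kind alone.

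Ndn and Plagl1, both growth suppressors, were the members not detected. Ndn encodes necdin, a MAGE family protein that in mice promotes myoblast differentiation and survival. Its probe set 94811_s_at read 161, 430 and 530 signal units on replicates 1, 2 and 3. The last 2 arrays lay above the limit and the first below, and without replicate 1 the probe set would count as detected; the log2 estimate over all 3 arrays was 0.44 (95% interval -0.28 to 1.16, adjusted p = 0.216, limma). The other Ndn probe set, 101059_at, read 175, 119 and 180, below the limit on each array, with an estimate of -0.66 (adjusted p = 0.0507, limma). Plagl1, also called Zac1, is a zinc finger transcription factor known in mice to regulate other imprinted genes, among them H19 and Igf2. Its 4 probe sets lay below the limit on every array, at 0.131 ± 0.043 (92501_s_at), 0.072 ± 0.076 (92502_at), 0.102 ± 0.028 (163814_r_at) and 0.314 ± 0.075 times (166084_f_at; SD, n = 3). Their log2 estimates ran from -4.30 to -1.70, and each passed the test below the limit (adjusted p = 0.00428 or less, limma). A probe set below the limit shows that no signal could be told from background with these probes, not that the transcript was absent.

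Dlk1 and Meg3 are neighbours in one imprinted cluster, where Dlk1 encodes a transmembrane protein of the Notch ligand type and Meg3 (also called Gtl2) is a non-coding RNA. Dlk1 probe set 101975_at read 915, 668 and 908 signal units, at 3.46 ± 1.03 times the limit (SD, n = 3). Replicate 2 was the low array, all 3 stood above the limit, and the log2 estimate was 1.74 with an SE of 0.26 (adjusted p = 0.000387, limma). Probe set 169192_i_at on U74Cv2 read 1813, 1133 and 1155, at 1.59 ± 0.15 times the limit (SD, n = 3). It was detected but did not pass the test (log2 estimate 0.67, 95% interval -0.03 to 1.37, adjusted p = 0.0814, limma). Probe set 108265_at on U74Bv2 lay below the limit on every array, at 0.302 ± 0.097 times (SD, n = 3; log2 estimate -1.78, adjusted p = 0.000520, limma).

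Meg3 had 9 probe sets, more than any other member, and 1 of them was detected. That one, 166581_r_at on U74Cv2, read 3272, 1777 and 2891 signal units, at 3.10 ± 0.62 times the limit (SD, n = 3). As for Grb10, its suffix _r_at marks a set for which some of the usual rules for choosing probes had been dropped. Replicate 2 was the low array, and the log2 estimate was 1.61 with an SE of 0.30 (adjusted p = 0.00487, limma). Of the other 8, 160173_at on U74Av2 lay above the limit on replicate 1 alone, at 1.78, 0.786 and 0.229 times. On U74Bv2, 109661_at lay above it on replicates 1 and 2 but not on replicate 3, at 1.41, 1.11 and 0.786 times. The limit of the replicate 3 array was the highest of its design, and without it 109661_at would count as detected. The remaining 6 lay below the limit on every array, with means between 0.180 and 0.671 times.

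**Figure D3:**
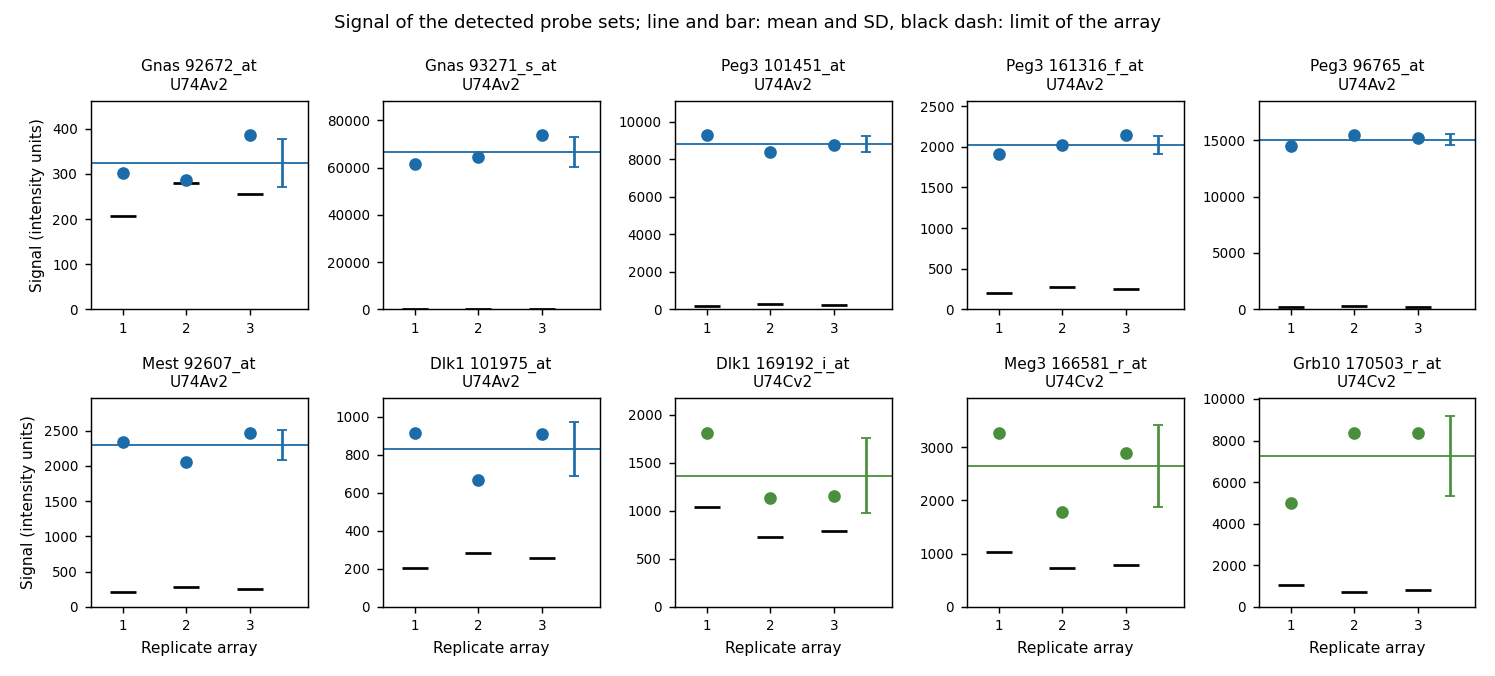
Signal in intensity units of the 10 detected member probe sets on replicate arrays 1, 2 and 3, with the mean as a line, the SD as a bar (n = 3) and the background limit of each array as a black dash. Each panel has an axis of its own that starts at 0. The Peg3 points differ little between arrays, while Grb10 170503_r_at is lowest on replicate 1 and Meg3 166581_r_at on replicate 2.

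H19 is an abundant RNA of fetal and differentiating muscle, and it is the precursor of miR-675, whose hairpin lies inside the H19 gene in the RefSeq annotation. The probe set annotated to both, 93028_at on U74Av2, read 72840, 66743 and 85785 signal units. All 3 arrays stood far above the limit, at 309 ± 62 times (SD, n = 3), with a log2 estimate of 8.25 and an SE of 0.24 (adjusted p = 5.70e-07, limma). With this probe set included, 11 of 32 probe sets and 7 of 9 genes were detected. By position in RefSeq, mature miR-335 also lies inside Mest, and mature miR-770 and 1 of the copies of miR-1906 inside Meg3. Their sequences are shown because their hosts gave signal; the arrays measured the hosts' probe sets and not the mature microRNAs. Sequences are from RefSeq on GRCm38.p6, 5′ to 3′, with the seed (bases 2 to 8) in capitals, and no 2 of these seeds are the same.
mmu-miR-675-5p: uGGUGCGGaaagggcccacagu
mmu-miR-675-3p: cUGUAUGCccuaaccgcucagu
mmu-miR-335-5p: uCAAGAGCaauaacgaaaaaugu
mmu-miR-335-3p: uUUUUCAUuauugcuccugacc
mmu-miR-770-5p: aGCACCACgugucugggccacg
mmu-miR-770-3p: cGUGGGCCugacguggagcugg
mmu-miR-1906: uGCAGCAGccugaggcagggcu

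Promoter windows, from 250 bases before to 50 after a gene's start, were found in RefSeq (GRCm38.p6) for 8 of the 9 genes, with 15 windows among them. As background, methylated control regions of several imprinted genes, among them Peg3, Mest and Plagl1, take in a promoter rich in CpG. The ratio of observed to expected CpG was above the median of all 32851 windows (0.384) in 13 of the 15. Gnas windows starting at 174327499 and 174327518 overlap, as do Mest windows starting at 30737800 and 30737803, so the 15 are not independent. Windows of some detected genes (Peg3, Mest and Meg3) and of both genes not detected (Ndn and Plagl1) are shown as examples, for each gene at the start with the highest CpG ratio. Capitals mark 3 motifs on either strand: the cAMP response element TGACGTCA, the TATA box letters TATAAA, and the GC box GGGCGG.
Peg3 (chr7:6730370-6730669, minus strand): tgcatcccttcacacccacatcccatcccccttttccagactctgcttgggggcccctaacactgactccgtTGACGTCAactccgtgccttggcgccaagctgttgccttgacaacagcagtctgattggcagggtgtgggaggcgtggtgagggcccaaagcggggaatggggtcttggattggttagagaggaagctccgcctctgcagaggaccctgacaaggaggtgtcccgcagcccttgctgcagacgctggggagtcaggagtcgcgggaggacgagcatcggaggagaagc
Mest (chr6:30737803-30738102, plus strand): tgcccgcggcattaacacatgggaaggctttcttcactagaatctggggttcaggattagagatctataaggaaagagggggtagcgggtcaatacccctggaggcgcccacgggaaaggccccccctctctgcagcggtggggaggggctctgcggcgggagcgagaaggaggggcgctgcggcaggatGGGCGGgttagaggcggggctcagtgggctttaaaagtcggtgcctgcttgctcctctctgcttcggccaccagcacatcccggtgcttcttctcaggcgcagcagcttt
Meg3 (chr12:109540746-109541045, plus strand): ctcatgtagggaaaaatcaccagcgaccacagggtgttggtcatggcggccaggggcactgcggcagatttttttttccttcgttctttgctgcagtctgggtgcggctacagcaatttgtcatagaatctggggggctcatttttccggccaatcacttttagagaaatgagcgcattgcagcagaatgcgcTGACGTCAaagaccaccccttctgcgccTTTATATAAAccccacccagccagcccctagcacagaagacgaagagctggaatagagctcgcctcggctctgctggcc
Ndn (chr7:62348027-62348326, plus strand): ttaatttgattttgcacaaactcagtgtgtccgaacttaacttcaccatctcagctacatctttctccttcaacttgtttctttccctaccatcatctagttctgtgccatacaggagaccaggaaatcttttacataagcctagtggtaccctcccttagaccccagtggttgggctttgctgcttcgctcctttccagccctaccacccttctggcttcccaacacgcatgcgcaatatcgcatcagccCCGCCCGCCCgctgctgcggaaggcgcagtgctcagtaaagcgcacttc
Plagl1 (chr10:13090582-13090881, plus strand): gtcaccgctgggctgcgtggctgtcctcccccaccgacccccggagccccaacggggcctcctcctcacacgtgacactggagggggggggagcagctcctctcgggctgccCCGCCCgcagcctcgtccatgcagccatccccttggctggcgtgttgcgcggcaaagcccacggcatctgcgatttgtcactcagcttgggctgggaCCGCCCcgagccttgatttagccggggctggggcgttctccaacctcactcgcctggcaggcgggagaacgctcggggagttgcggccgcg
The CpG ratios of these windows were 0.463 for Peg3, 0.605 for Mest, 0.602 for Meg3, 0.623 for Ndn and 0.696 for Plagl1. TGACGTCA was found in the windows of Peg3 and Meg3 and in 1.79% of all windows. TATAAA was found in the Meg3 window, as 2 matches that overlap on opposite strands, and in 13.6% of all windows. GGGCGG was found in the windows of Mest, Ndn and Plagl1 and in 35.7% of all windows; the Ndn matches overlap. The windows of the other detected genes, not printed for length, held no TGACGTCA. Of 4 Gnas windows, 3 held TATAAA and 2 held GGGCGG. Those starting at 174327499 and 174327518 overlap and may hold the same match of TATAAA. Of 2 Grb10 windows, 1 held GGGCGG, with 5 matches, and the Dlk1 window held none of the 3 motifs. The motifs were chosen with the members known, and a match is a description of letters, not of a bound site.

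The spread between replicates differed by design. The median SD of log2 signal was 0.182 over the 10 detected member probe sets, against 0.178 over all detected probe sets of the 3 designs. On U74Av2 it was 0.134 for the 7 members against 0.154 for all, and on U74Cv2 0.426 for the 3 members against 0.238. The 3 detected probe sets of U74Cv2 were those of Dlk1, Meg3 and Grb10, with SDs between 0.384 and 0.466, and replicate 2 was the lowest array for Dlk1 and Meg3 and replicate 1 for Grb10. For Dlk1, however, replicates 2 and 3 were close (1133 and 1155 signal units), and replicate 1 stood apart as the highest (1813). Replicate 1 of U74Cv2 differed from the others in fluidics station and chip lot, and the part of these was not tested. The undetected members scattered more, with a median SD of 0.606, against 0.593 over every undetected probe set.

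Other imprinted genes were described in the same way. They are genes known as imprinted in mouse in at least some tissues, and whether they are imprinted in these cells was not tested. The list held 46 genes, of which 42 were measured. Of these, 24 (57.1%) were detected, against 62.0% of all genes. Named among them are the 5 whose best probe set had the highest multiple, Igf2, Cd81, H13, Dcn and Gatm, which says nothing of the order of their RNA levels, since probes differ. Igf2, the fetal growth factor encoded beside H19, read 12978, 12604 and 11978 signal units with 98623_g_at, at 51.6 ± 10.0 times the limit (SD, n = 3), and 1 of its 2 probe sets was detected. Igf2r, the receptor that removes IGF2, read 2486, 2349 and 2445, at 10.0 ± 1.9 times (SD, n = 3). Cdkn1c, the cyclin-dependent kinase inhibitor p57, read 423, 511 and 363, above the limit on each array but at only 1.76 ± 0.32 times (SD, n = 3). Cd81, a tetraspanin, lay at 51.3 ± 9.9 times, H13, a signal peptide peptidase, at 28.1 ± 1.9 times with 1 of 4 probe sets (96117_r_at), Dcn, the matrix proteoglycan decorin, at 25.2 ± 4.2 times, and Gatm, an enzyme of creatine synthesis, at 20.1 ± 2.8 times (SD, n = 3).

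By locus, 7 of 9 measured genes of the H19, Igf2 and Kcnq1 region were detected, all but Phlda2 and Ascl2 (against 62.0% of all genes). Of these 7, Igf2 and Kcnq1 were detected only with probe sets that carry a suffix. Of the region that holds Ndn, 1 of 5 other genes was detected, Ube3a, while Magel2, Mkrn3, Peg12 and Atp10a were not. Of the Peg10 and Sgce region, 3 of 5 were detected, and Ppp1r9a and Tfpi2 were not. Rian and Dio3, which lie in one cluster with Dlk1 and Meg3, were not detected, at 0.528 ± 0.082 and 0.207 ± 0.034 times the limit (SD, n = 3). The other listed genes that were not detected were Nnat, Usp29, Rasgrf1, Slc22a2, Nap1l5, Inpp5f, Sfmbt2 and Dlx5. The grouping by locus was made after these values were known and carries no test.

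**Figure D4:**
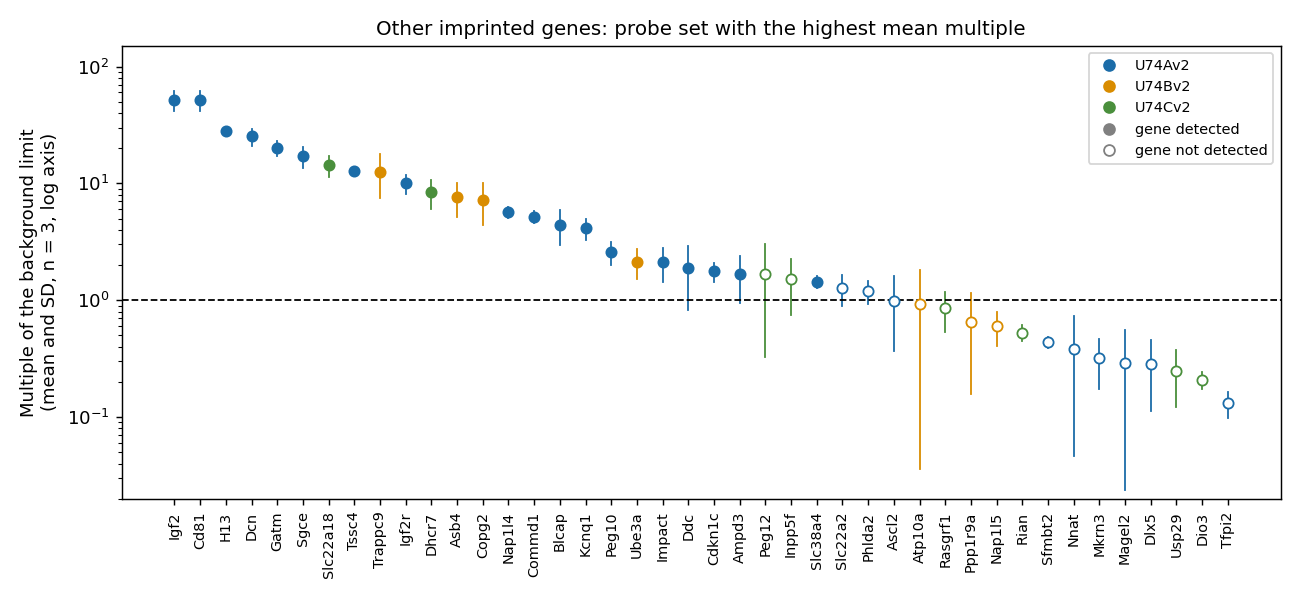
Level of 42 other imprinted genes as a multiple of the background limit (log axis), for the probe set of each gene with the highest mean multiple; points are means and bars SDs over 3 arrays, and the dashed line is the limit. Filled points are the 24 detected genes, and open points the 18 not detected, some of which have a mean above the limit but at least 1 array below it.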

How the data were processed

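The authors deposited a linear intensity for each probe set, computed with MAS5 per the submitters' processing notes, with no version or options given in the sources used here. The 2% trimmed mean of every array lay between 1500.3 and 1501, so arrays had been scaled one by one, and designs share no normalization. Instrument settings, deposited in other units, matched the labelled chip type on 9 of 9 arrays. Genes came from the platform annotation, by probe sets with 1 symbol: 10833 of 12422 on U74Av2, 10581 of 12411 on U74Bv2 and 7717 of 11868 on U74Cv2 (several symbols on 396, 178 and 150).

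The limit was the 95th percentile of 20, 20 and 17 controls (the Dap, Lys, Phe, Thr and Trpn sets and reverse-strand sets, without families whose median exceeded the design's median signal). limma 3.58.1 in R 4.3.3 fitted log2(signal) minus log2(limit) per design with an intercept, with Benjamini-Hochberg adjustment over all its probe sets and a threshold of 0.05. The fit was tested on simulated data with independent noise for each probe set. Those data held no error of the limit shared by the probe sets of an array, so that test cannot show its effect. Python 3.11.15, numpy 2.4.6, pandas 2.3.3 and matplotlib 3.10.9 did the rest. The number of arrays limits the precision.

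The members and lists were chosen with earlier results of these data known. Named were all members and probe sets, the 5 highest detected other imprinted genes, Igf2, Igf2r and Cdkn1c, those not detected, and the muscle markers. The 5 detected markers of other cell types and the genes in the closing section were named in addition. Likeness of pattern between genes was not computed, since 3 arrays of 1 condition hold replicate scatter only.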

Additional observations from a re-analysis of the deposited data

How the results depend on the processing

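Of 49 alternative values for the 6 main counts and spreads, 45 stayed within 1.5 times the reported value. With no control family left out of the limit, 5 member probe sets (16.1%, against 13.2% of all) and 3 member genes (37.5%, against 23.4% of all) were detected. The share of member probe sets then lay above that of all, where with the reported limit it lay below (32.3% against 44.7%). Of the other imprinted genes, 11 of 42 were then detected, and Dlk1, Meg3 and Grb10 were not. Without the probe sets that carry a suffix, 5 of 18 were detected (27.8%, against 45.9% of all), for 4 of 8 genes (against 60.1% of all). The member genes' share then lay below that of all genes, since those detected for Meg3 and Grb10 both carry a suffix and fewer probe sets are tested. The Gnas probe set at 272 times the limit carries a suffix too, so Gnas was then detected by 92672_at alone. That probe set stood at 1.02 times the limit on replicate 2. It was not detected with the highest control, or the array median, as the limit. Without 1 replicate, between 10 and 11 member probe sets, 6 and 7 member genes, and 25 and 26 other imprinted genes were detected, while the share rose to between 46.5% and 50.1% of all probe sets and between 63.7% and 66.6% of all genes; 8 to 9 member probe sets lay above the limit by limma, and the median SD was between 0.121 and 0.135. Ndn was detected without replicate 1, and when 2 arrays above the limit were enough (7 genes), and 109661_at of Meg3 without replicate 3. The 9 muscle markers were detected at each limit tried for them. Of 64 alternative levels of single members, 48 moved by less than the replicate SD, 13 by more, and 3 levels of detected genes crossed the limit. By the median over their probe sets Gnas, Grb10 and Meg3 lay below the limit, at 0.468, 0.553 and 0.664 times, since most of their probe sets were not detected. Among those 13, the level of Ndn, which was not detected, crossed it too, from 1.46 to 0.688 times with the array median as the limit. With that limit the Gnas multiple was 122 and that of Peg3 27.7, so multiples depend on the limit. On U74Bv2 and U74Cv2 leaving out replicate 1 also leaves 1 fluidics station. Signal close to the limit, as for 92672_at of Gnas, bounds what could be called. No paired analysis was possible because each fit holds 1 design, in which every replicate number occurs once.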

Other observations

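Relatives and partners of the members, picked from general knowledge after the members' values had been seen, were also looked up, and 20 of 21 measured genes were detected, against 62.0% of all genes. Adaptors related to Grb10 gave signal, with Grb14 at 23.5 ± 5.4 times the background limit of U74Cv2 (by 1 of its 2 probe sets, 168409_r_at) and Grb7 at 4.03 ± 0.91 times (SD, n = 3). The detected probe sets of Grb14 and Grb10 thus both carry the suffix _r_at. The receptors that Grb10 binds were detected as well, Igf1r by 4 of 4 probe sets and Insr by 3 of 4. Maged1, a MAGE family relative of Ndn, lay at 58.1 ± 5.6 times and Maged2, by 2 of its 3 probe sets, at 7.76 ± 1.52 times with 94289_r_at (SD, n = 3), where Ndn itself was not detected. Plagl2, a relative of Plagl1, lay at 2.99 ± 1.23 times (by 1 of its 2 probe sets) and Dlk2, a relative of Dlk1, at 2.71 ± 0.63 times the limit of U74Bv2 (SD, n = 3).

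Of that list, 5 genes encode proteins that work with the Gnas protein, a few of many such subunits and enzymes, and all 5 were detected. The G protein beta subunits Gnb1 and Gnb2 lay at 33.5 ± 8.5 and 34.3 ± 5.3 times the limit, the adenylyl cyclases Adcy6 and Adcy9 at 12.1 ± 2.8 and 4.05 ± 0.75 times, and Prkar1a, a regulatory subunit of protein kinase A, at 87.9 ± 10.5 times (SD, n = 3). Of the RNA-binding proteins named for Igf2 mRNA, Igf2bp3 lay at 6.30 ± 2.32 times the limit (by 1 of its 3 probe sets), and Igf2bp1 was the gene of this list that was not detected, at 0.803 ± 0.862 times (SD, n = 3). Ctcf, a DNA-binding protein that insulates Igf2 from its enhancers at the H19 control region, lay at 3.54 ± 0.74 times (SD, n = 3). Levels of different genes are not compared here, since their probes differ.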
